A study of Rattus norvegicus with 18 samples.

Results

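The genes described here are 10 antioxidant and metal stress genes of the rat: Hmox1, Mt1a, Mt3, Nqo1, Gclc, Gclm, Txnrd1, Srxn1, Sod2 and Nfe2l2. They were taken by name, as every array probe whose gene name or transcript accession is that of one of them. The array carried 15 probes for the 10 genes, of 41012 probes for 35279 genes, and all 15 passed the filter on dim signals, 13 of them well above background on all 18 arrays. The Gclm probe and a second Srxn1 probe passed only through the late time-point where all 3 arrays were above background. The tissue was the proximal sciatic nerve of adult male Sprague-Dawley rats, from which a segment of the left nerve had been cut out, so that the nerve was transected. A piece of nerve was collected at 0, 0.5, 1, 3, 6 and 9 h after the operation, with 3 arrays at each time-point and 18 in all, and every group had the same strain, sex, anaesthesia and surgery, with the 0 h nerve as the control. There were no sham-operated groups and no other treatment. The sources used here do not say whether an array held RNA of 1 rat or of several pooled rats, so that the P-values measure the spread between arrays, which may be technical in part.

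Cells meet oxidants and reactive chemicals with a common set of genes. The transcription factor NRF2, encoded by Nfe2l2, is bound by KEAP1 and degraded in resting cells; oxidants and electrophiles release it, and with a small MAF partner it binds the antioxidant response element (ARE) of its target genes, where BACH1 competes as a repressor. Those targets supply glutathione (Gclc and Gclm, the subunits of glutamate-cysteine ligase), reduce thioredoxin and peroxiredoxins (Txnrd1, Srxn1), reduce quinones (Nqo1) and degrade haem to biliverdin, iron and carbon monoxide (Hmox1). Metallothioneins (Mt1a, Mt3) bind zinc and copper. Mt1a is driven by the metal-sensing factor MTF1 through metal response elements (MRE) and by glucocorticoid and cytokine signals, whereas Mt3 is known to respond little to metals. Sod2, the mitochondrial superoxide dismutase, is a well-known target of NF-κB. In an injured nerve these genes can be expressed by Schwann cells (SCs), fibroblasts, vessels and leukocytes, and in bulk nerve more RNA per cell and more cells of a type cannot be told apart.

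A level below is the log2 signal of a probe, scaled so that the 75th percentile of the array is 0, and it can be compared between arrays but not between probes. Each gene is reported by its brightest probe unless another is named. A change was called where the unadjusted P of the limma fit was under 0.01 and the Benjamini-Hochberg adjusted P, over all probes tested, was under 0.05. Over the 6 time-points the F-test called 6 of the 10 genes, Sod2, Hmox1, Mt1a, Gclc, Txnrd1 and Gclm, where 34.6% of all genes tested were called. Gclm was tested only because its 6 h arrays were bright, so that its call had in part to follow from the filter, and of the other 9 genes 5 were called. Nqo1, Srxn1, Mt3 and Nfe2l2 were not called.

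The time courses fell into an early and a later onset. At 0.5 h 1 gene, Mt1a, was called higher than at 0 h (4.28% of all genes were called higher and 1.72% lower), and at 1 h again Mt1a alone (3.59% higher, 2.04% lower). At 3 h 5 genes were called higher, Mt1a, Hmox1, Sod2, Gclc and Txnrd1 (7.15% of all genes higher, 6.83% lower). At 6 h the same 5 and Gclm were called higher (12% higher, 13% lower), and at 9 h these 6 again (15.8% higher, 15.4% lower). Gclm was below background at 0 h and passed the filter through its 6 h arrays. Without it 5 of the other 9 genes were called at 6 h and at 9 h. No member was called lower than at 0 h at any time-point. The median log2 change of the 10 genes was 0.09 at 0.5 h and 0.10 at 1 h, then 0.90, 1.17 and 1.1 at 3, 6 and 9 h, beside medians over all genes between 0.00 and 0.02. Without Gclm the middle of the 9 changes was that of Gclc at 3, 6 and 9 h (0.85, 1.01 and 0.92).

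The arrays had been scanned on 3 days, which the file headers record. The 0 h and 0.5 h arrays shared the first day, the 1, 3 and 6 h arrays and 2 of the 9 h arrays the second, and the third 9 h array stood alone on the third. From 1 h on, scan day and time after transection cannot be told apart in a change against 0 h. Therefore the 11 arrays of the second day were also fitted on their own, against 1 h. Each of the 9 slides held arrays of 1 time-point only, so that slide and time cannot be told apart in any contrast, those within a scan day included. There, 5 genes were called higher at 3 h than at 1 h, Hmox1, Sod2, Txnrd1, Mt1a and Gclc (4.1% of all genes higher, 2.95% lower). Hmox1, Sod2, Txnrd1, Gclc and Gclm were called higher at 6 h (10.3% higher, 11.3% lower) and the same 5 at 9 h (8.09% higher, 8.06% lower). No member was called lower than at 1 h. With normexp background correction Hmox1 alone was called at 3 h against 1 h, Hmox1, Sod2 and Txnrd1 at 6 h, and Hmox1 and Sod2 at 9 h. The median changes of the 10 genes against 1 h were 0.46, 0.59 and 0.45 at 3, 6 and 9 h, beside -0.04, -0.05 and -0.07 over all genes. These counts and medians include Gclm, which was below background at 1 h and passed the filter through its 6 h arrays. Without Gclm the middle of the 9 changes was 0.64 (Gclc) at 3 h, 0.38 (Mt1a) at 6 h and 0.25 (Nfe2l2) at 9 h.

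**Figure D1:**
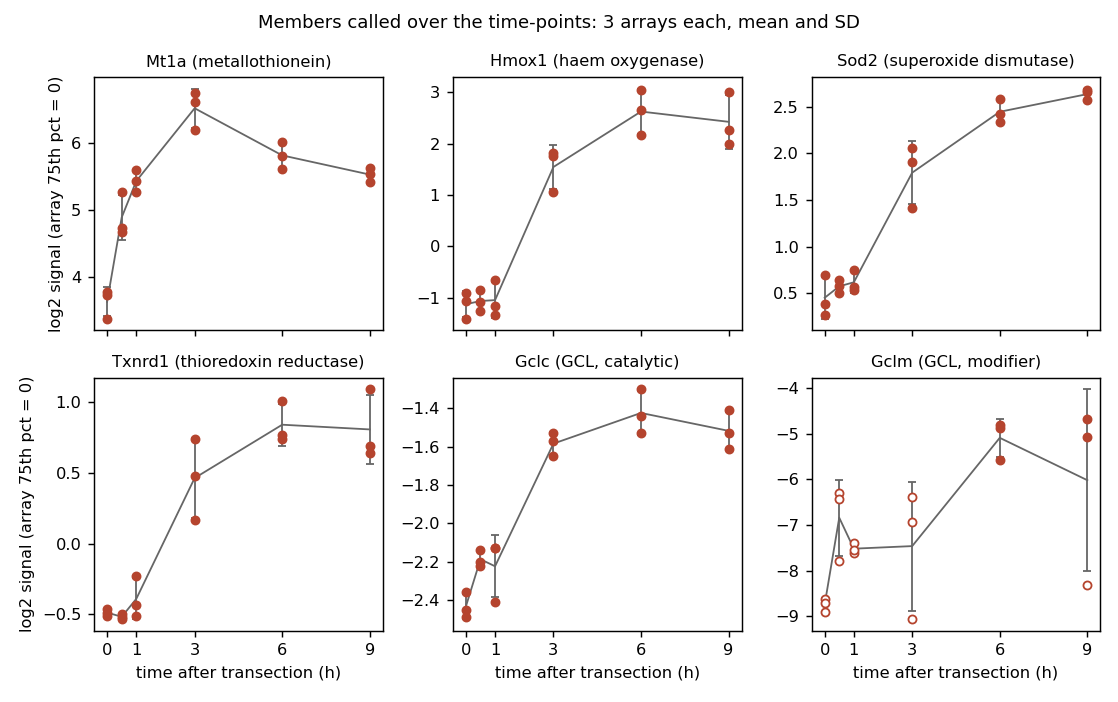
Level of the 6 genes called over the time-points (y axis, log2 signal with the 75th percentile of each array at 0, a different range in each panel) against the time after transection in h (x axis). Points are single arrays, filled where the probe was well above background and open where it was not, and lines and bars are means and SDs of 3 arrays. Mt1a had already risen at 0.5 h and was highest at 3 h, whereas Hmox1, Sod2, Txnrd1 and Gclc had changed by at most 0.25 log2 until 1 h and were higher from 3 h on.

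The promoters are shown first for the members that rose and that hold an ARE or MRE core, because these are the elements through which NRF2 and MTF1 act. RefSeq gave promoters of 9 of the 10 genes, all but Hmox1, on the GRCr8 build, and 2 for Txnrd1, which has several starts. The 250 bases before each annotated start were searched on both strands for the ARE core TGACNNNGC, the MRE core TGCACNC or TGCGCNC, the AP-1 site TGANTCA and an NF-κB site (GGG, any 5 bases, CC). Of 33465 rat promoters 10.1% held the ARE core, 20.6% an MRE core, 6.34% the AP-1 site and 42.3% the NF-κB site. Each sequence below is written 5′ to 3′ along the gene and ends at the base before the annotated start, with ARE and MRE cores on either strand in capitals.
Mt1a, chr19:10832976-10833225 (minus strand): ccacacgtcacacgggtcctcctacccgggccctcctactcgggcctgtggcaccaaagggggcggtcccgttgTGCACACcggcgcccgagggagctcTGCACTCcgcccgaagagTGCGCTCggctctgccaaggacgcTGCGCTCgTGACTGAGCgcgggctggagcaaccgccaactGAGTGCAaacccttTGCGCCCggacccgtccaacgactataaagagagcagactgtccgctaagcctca
Gclm, chr2:213031885-213032134 (plus strand): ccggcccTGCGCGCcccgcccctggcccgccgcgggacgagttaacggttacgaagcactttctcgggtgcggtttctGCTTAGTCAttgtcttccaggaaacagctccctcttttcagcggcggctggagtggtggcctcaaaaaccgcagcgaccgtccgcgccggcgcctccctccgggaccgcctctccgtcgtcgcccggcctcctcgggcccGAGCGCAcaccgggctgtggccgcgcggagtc
Txnrd1, second start, chr7:22755905-22756154 (minus strand): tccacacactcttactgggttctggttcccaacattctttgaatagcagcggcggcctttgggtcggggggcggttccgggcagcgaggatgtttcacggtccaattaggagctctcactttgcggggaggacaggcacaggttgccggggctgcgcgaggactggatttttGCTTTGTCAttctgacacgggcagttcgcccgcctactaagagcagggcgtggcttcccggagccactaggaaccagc
Sod2, chr1:50050169-50050418 (minus strand): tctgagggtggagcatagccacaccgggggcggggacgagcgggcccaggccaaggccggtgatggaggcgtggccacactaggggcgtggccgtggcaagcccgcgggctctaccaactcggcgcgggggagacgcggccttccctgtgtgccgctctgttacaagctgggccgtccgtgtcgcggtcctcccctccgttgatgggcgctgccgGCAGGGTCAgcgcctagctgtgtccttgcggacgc

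The Mt1a promoter held 6 MRE cores, between 176 and 49 bases before the start, 1 ARE core and 2 NF-κB sites. The ARE core TGACTGAGC lay at 101 to 93 bases before the start, close after an MRE core at 109 to 103. Mt3, its neighbour on chromosome 19, held 3 MRE cores and no ARE core. Gclm held 1 ARE core, 2 MRE cores and 1 NF-κB site, the Txnrd1 start shown held 1 ARE core and 1 NF-κB site, and its other start held none of the 4 motifs. Sod2 held 1 ARE core and 4 NF-κB sites, Nqo1 held 1 NF-κB site, and Srxn1 held 1 AP-1 site. In Gclc and Nfe2l2 none of these letters occurred in the window. In all, 4 of the 9 genes held an ARE core, 3 an MRE core, 1 the AP-1 site and 5 the NF-κB site. These are matches of letters, and elements farther upstream were not searched.

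Mt1a, a small zinc- and copper-binding protein, was the earliest to rise. Its probe, at chr19:11261706-11261765 of rn4, read 3.73, 3.78 and 3.38 at 0 h, and 5.27, 4.73 and 4.67 at 0.5 h. At 1 h the levels were 5.60, 5.43 and 5.27, and at 3 h 6.19, 6.75 and 6.62. They were lower again at 6 h (6.02, 5.81 and 5.62) and at 9 h (5.63, 5.42 and 5.54). From 0.5 h on no array of Mt1a reached down to the 0 h range, and the 3 h arrays were the highest of the series. Mt1a was 2.39-fold higher than at 0 h at 0.5 h (log2 change 1.26, SE 0.18, adjusted P = 0.00193), where both groups shared a scan day but no slide, and 3.49-fold higher at 1 h (adjusted P = 0.000102). The change was 7.39-fold at 3 h (log2 2.89, SE 0.18, adjusted P = 5.89e-07), 4.55-fold at 6 h and 3.73-fold at 9 h. Within the second scan day Mt1a was 2.12-fold higher at 3 h than at 1 h (adjusted P = 0.00904), whereas at 6 h it was 0.38 log2 above 1 h (adjusted P = 0.143) and at 9 h 0.09 (adjusted P = 0.81). The call at 3 h against 1 h was lost with normexp background correction (log2 1.00, adjusted P = 0.165).

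The return of Mt1a after 3 h was tested by a contrast of 9 h with 3 h within the second scan day, chosen after the values were seen. In it 2 members were called, Mt1a lower (log2 -0.99, SE 0.19, adjusted P = 0.0254) and Sod2 higher (log2 0.84, SE 0.18, adjusted P = 0.0354), where 2.9% of all genes were called higher and 2.85% lower. Neither held without 9 h replicate 1 or 2, of which there were only those 2 on that day, and the Mt1a call was also lost without 3 h replicate 2 or 3. The Sod2 call was lost without 1 h replicate 1 or 2, 3 h replicate 1 or 3, or 6 h replicate 2, and without a filter on dim probes or with a shift to the median. Both calls were lost with normexp background correction and with a 2-fold minimum.

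A second Mt1a probe gave another time course. It was designed from an expressed sequence tag and lies 502 bases away, at chr19:11262268-11262327 of rn4. Its levels were -3.81, -2.27 and -5.04 at 0 h, with 0.79, -0.14 and -0.24 on the 0.5 h arrays and 0.10, -0.10 and -0.08 on the 1 h arrays. They were -0.40, -0.13 and -0.08 at 3 h, with -2.10, -2.56 and -1.86 on the 6 h arrays and -1.83, -2.48 and -1.39 on the 9 h arrays. The 0 h arrays of this probe were widely spread (SD 1.39), and its plateau ran from 0.5 h to 3 h. It was 14.4-fold higher at 0.5 h than at 0 h (log2 3.84, SE 0.51, adjusted P = 0.000997), 12.8-fold at 1 h, 11.3-fold at 3 h, 2.89-fold at 6 h and 3.49-fold at 9 h. These sizes rest on the 0 h arrays, as the change at 0.5 h was 23.6-fold without 0 h replicate 2 and 9.05-fold without 0 h replicate 3. At 6 and 9 h the arrays overlapped those of 0 h, and these calls were lost when any 1 of 15 and of 4 arrays was left out, with folds from 1.82 to 4.76 and from 2.2 to 5.75. On the second scan day it fell 4.43-fold from 1 h to 6 h (adjusted P = 0.000541) and 4.37-fold from 1 h to 9 h (adjusted P = 0.00124), where the other probe was not below its 1 h level. The calls of this probe at 0.5, 1 and 3 h against 0 h, and its falls against 1 h, were kept without each array in turn. The 60 bases of the probes matched each other at no more than 22 positions without gaps.

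**Figure D2:**
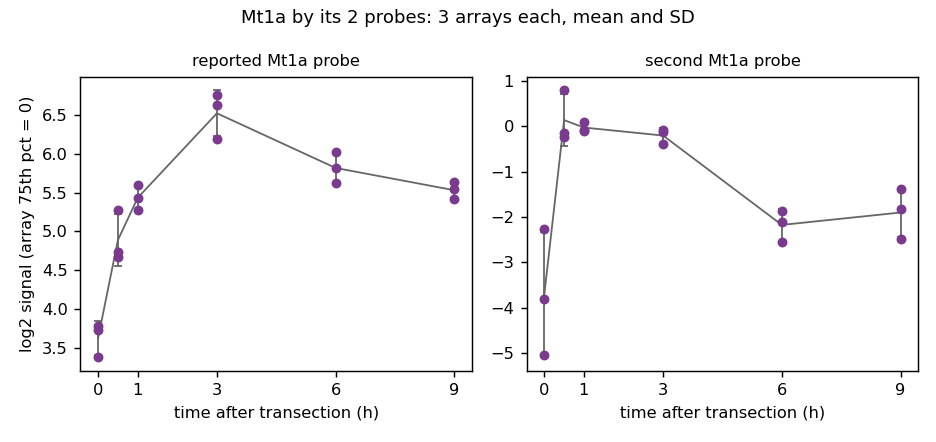
Level of the 2 Mt1a probes (y axis, log2 signal with the array 75th percentile at 0, not comparable between the panels) against the time after transection in h (x axis). Points are single arrays and lines and bars are means and SDs of 3 arrays. The reported probe was highest at 3 h (6.52) and was at 5.53 at 9 h, whereas the second probe was highest at 0.5 h (0.14) and was at -2.17 at 6 h.

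Mt3, a metallothionein best known from neurons, was not called. Its 18 levels lay between 5.16 and 5.84, with means of 5.52 ± 0.26 at 0 h and 5.23 ± 0.06 at 0.5 h, and of 5.75 ± 0.12 for the 3 h and 5.38 ± 0.18 for the 9 h arrays (SD, n = 3). The largest change against 0 h was -0.29 log2 at 0.5 h (SE 0.14, adjusted P = 0.227). The F-test gave an adjusted P of 0.0543 for Mt3, and passed without 0 h replicate 1 (0.0267), without 0 h replicate 3 (0.0315) or with a trended robust prior (0.0248). The Mt3 and reported Mt1a probes matched at no more than 25 of 60 bases.

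Hmox1, the inducible haem oxygenase, rose from 3 h on. Its probe, at chr19:13969336-13969395 of rn4, was printed in 10 spots per array, which agreed within an SD of 0.029 to 0.129 log2 on each array. At 0 h the levels were -1.07, -0.91 and -1.41, with -1.08, -1.27 and -0.85 on the 0.5 h arrays and -1.33, -1.17 and -0.65 on the 1 h arrays. The 3 h arrays read 1.06, 1.76 and 1.81, those of 6 h 2.66, 2.16 and 3.05, and those of 9 h 2.0, 2.26 and 3.01. The arrays of 0, 0.5 and 1 h overlapped, and every array from 3 h on lay above all of them. Hmox1 was 6.38-fold higher at 3 h than at 0 h (log2 2.67, SE 0.30, adjusted P = 6.46e-05), 13.5-fold at 6 h (log2 3.76, adjusted P = 1.84e-06) and 11.8-fold at 9 h (adjusted P = 2.34e-06). At 1 h the change was 0.08 log2 (SE 0.30, adjusted P = 0.894), which is 2.1% of the change at 6 h on the log2 scale. Within the second scan day it was 6.03-fold higher at 3 h than at 1 h, 12.8-fold at 6 h and 9.05-fold at 9 h (adjusted P = 0.00252, 0.000246 and 0.00079).

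Sod2, which turns superoxide into hydrogen peroxide in mitochondria, also rose from 3 h on. Its probe, recorded at chr1:41862972-41863005 of rn4, read 0.70, 0.27 and 0.38 at 0 h, with 0.58, 0.64 and 0.50 on the 0.5 h arrays and 0.57, 0.75 and 0.53 on the 1 h arrays. It read 1.41, 2.06 and 1.91 at 3 h, with 2.34, 2.42 and 2.58 on the 6 h arrays and 2.68, 2.57 and 2.66 on the 9 h arrays. Every array from 3 h on was above every earlier array, and the 9 h arrays agreed within an SD of 0.06. Sod2 was 2.53-fold higher at 3 h than at 0 h (adjusted P = 6.67e-05), 3.98-fold at 6 h and 4.56-fold at 9 h (log2 2.19, SE 0.15, adjusted P = 5.71e-07). Against 1 h on the same scan day the change was 2.25-fold at 3 h, 3.55-fold at 6 h and 4.02-fold at 9 h (adjusted P = 0.00584, 0.00036 and 0.000536). With normexp background correction the call at 3 h against 1 h was lost (log2 1.05, adjusted P = 0.0895).

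Txnrd1, the cytosolic reductase that recycles thioredoxin, was measured by 4 probes. The brightest, at chr7:23056700-23056759 of rn4, read -0.49, -0.51 and -0.46 at 0 h, with -0.52, -0.53 and -0.50 on the 0.5 h arrays and -0.51, -0.43 and -0.23 on the 1 h arrays. Its levels were 0.17, 0.48 and 0.74 at 3 h, with 1.01, 0.74 and 0.77 on the 6 h arrays and 0.69, 0.64 and 1.09 on the 9 h arrays. The early arrays agreed closely, and the arrays from 3 h on were all above them. Txnrd1 was 1.93-fold higher at 3 h than at 0 h (adjusted P = 0.000736), 2.51-fold at 6 h (log2 1.33, SE 0.15, adjusted P = 2.87e-05) and 2.45-fold at 9 h. Within the second scan day it was 1.81-fold, 2.35-fold and 2.07-fold above 1 h at 3, 6 and 9 h (adjusted P = 0.0145, 0.00134 and 0.00548). The call at 3 h against 1 h was lost without 1 h replicate 1 or 3 h replicate 2, and that at 9 h against 1 h without 9 h replicate 1. Both were also lost with normexp background correction (adjusted P = 0.445 and 0.106). All 4 probes were called by the F-test, with changes at 6 h against 0 h between 1.37-fold and 2.51-fold. They differed in size, and their highest means did not all fall at the same time-point. The probe at chr7:23055604-23055663 was not called at 3 h (log2 0.33, adjusted P = 0.0702) and was 1.52-fold higher at 9 h. A probe whose match spans 1879 bases of the genome, chr7:23073062-23074940, had its highest mean at 3 h (2.58-fold) and was 2.05-fold higher at 9 h. At 9 h against 3 h within the second scan day neither was called (log2 0.33, adjusted P = 0.0908, and log2 -0.39, adjusted P = 0.279).

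Gclc, the catalytic subunit of the enzyme that limits glutathione synthesis, had the smallest change of the genes called. Its probe, at chr8:82761662-82761721 of rn4, read -2.36, -2.45 and -2.49 at 0 h, with -2.22, -2.20 and -2.14 on the 0.5 h arrays and -2.13, -2.13 and -2.41 on the 1 h arrays. It read -1.65, -1.57 and -1.53 at 3 h, with -1.30, -1.53 and -1.44 on the 6 h arrays and -1.53, -1.61 and -1.41 on the 9 h arrays. The 0.5 h arrays lay above the 0 h arrays, by 0.25 log2, a change that did not pass (adjusted P = 0.14), and the arrays from 3 h on were above all earlier ones. Gclc was 1.8-fold higher at 3 h (adjusted P = 6.63e-05), 2.02-fold at 6 h (log2 1.01, SE 0.10, adjusted P = 8.09e-06) and 1.89-fold at 9 h (adjusted P = 1.49e-05). The calls at 6 and 9 h were lost with normexp background correction, where the changes were 0.84 and 0.7 log2. Against 1 h within the second scan day the changes were 1.56-fold, 1.74-fold and 1.57-fold (adjusted P = 0.0116, 0.00192 and 0.00897). All 3 were lost with normexp background correction, where the changes were 0.61, 0.41 and 0.25 log2 (adjusted P = 0.995, 0.532 and 0.635). The call at 9 h against 1 h was also lost without 9 h replicate 1 or 2.

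Gclm, the modifier subunit of the same enzyme, was near the detection limit. Its probe, at chr2:218915215-218915274 of rn4, was not well above background on any array of 0, 0.5, 1 or 3 h, and was well above it on 3 of 3 arrays at 6 h and on 2 of 3 at 9 h. The 6 h arrays read -4.81, -4.88 and -5.57, and the 9 h arrays -5.06, -4.68 and -8.31, the last of them not above background. The lowest signal that was well above background on each 0 h array was taken as a floor. Gclm was 2.68-fold above this floor at 6 h and 1.41-fold at 9 h. These bounds are approximate, as a probe not above background can lie over such a floor. On a 1 h array the second Srxn1 probe read -5.68 without being above background. The mean 0 h floor was -6.51. The 6 h bound was 2.43-fold to 3.17-fold without each array in turn, whereas the 9 h bound was 3.11-fold without 9 h replicate 3 and 1.01-fold without 9 h replicate 1, and none was left without 9 h replicate 2. The adjusted P of the fit, 0.00474 at 6 h and 0.0187 at 9 h, compares measured signals of which those at 0 h were below background, for a probe that passed the filter only through its 6 h arrays, and is no test of these bounds. The same holds for the calls at 6 and 9 h against 1 h within the second scan day (adjusted P = 0.0188 and 0.0259). The F-test call of Gclm (adjusted P = 0.0251) was lost when any 1 of 13 arrays was left out, among them each array of 0, 1 and 6 h. The 9 h call was lost without any 1 of the 3 arrays of 0 h or without 9 h replicate 1 or 2, the 6 h call against 1 h without 6 h replicate 2, and the 9 h call against 1 h without 1 h replicate 1 or 2 or 9 h replicate 1 or 2. The 6 h call against 0 h was kept without each array in turn, but was lost with normexp background correction, where the change was 0.57 log2 in place of 3.67. The 9 h call against 0 h was also lost with normexp, with quantile normalization, with the deposited matrix and with only the 6 arrays of the contrast.

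**Figure D3:**
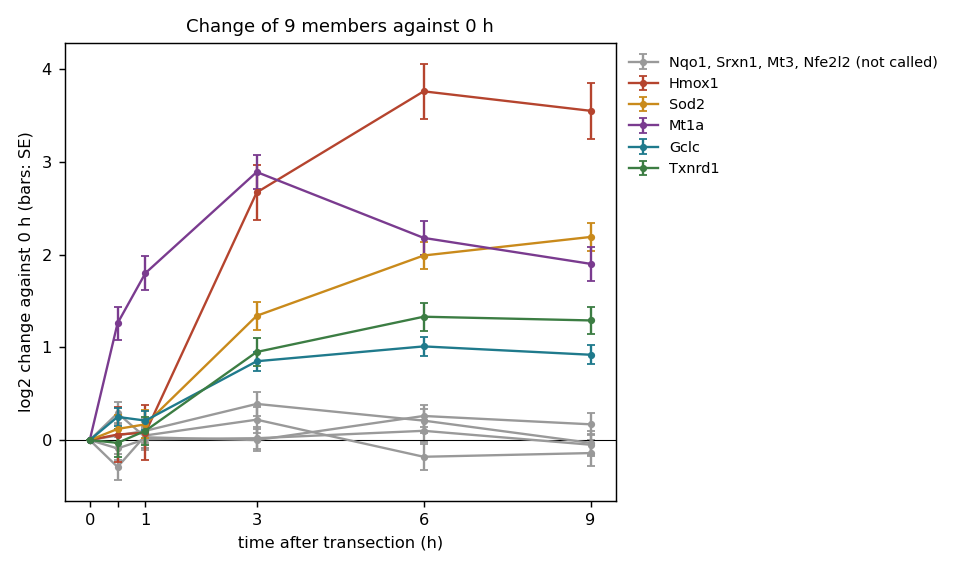
Log2 change of 9 members against 0 h (y axis, bars are standard errors of the fit) against the time after transection in h (x axis), with the 4 genes not called over the time-points in grey and Gclm left out because it was not above background at 0 h. Mt1a was at 1.26 at 0.5 h and 2.89 at 3 h, Hmox1 rose between 1 h (0.08) and 3 h (2.67), and the grey lines lay between -0.29 and 0.39.

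Of the genes not called, Nqo1, the NAD(P)H quinone reductase often used as a readout of NRF2, moved least. Its 18 levels lay between -0.75 and -0.25, and the means ran from -0.62 ± 0.02 at 0.5 h to -0.43 ± 0.03 at 6 h (SD, n = 3). The largest change against 0 h was 0.10 log2 at 6 h (SE 0.12, adjusted P = 0.558), and the F-test gave an adjusted P of 0.742. The 0 h arrays spanned -0.74 to -0.25, more than the 0.5, 3, 6 and 9 h arrays did.

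Srxn1, sulfiredoxin, which repairs over-oxidised peroxiredoxins, read -2.26, -2.18 and -2.28 at 0 h and -2.00, -1.77 and -1.77 at 3 h. These arrays did not overlap, but the change of 0.39 log2 did not pass (SE 0.13, adjusted P = 0.06). It passed without 1 h replicate 3 and without 9 h replicate 2 or 3. At 9 h the levels were -2.21, -2.53 and -2.05, and overlapped those of 0 h. A second Srxn1 probe, whose match spans 7755 bases at chr3:142460445-142468199 of rn4, was above background on 7 of 18 arrays and on none at 0 or 1 h. It was not called by the F-test (adjusted P = 0.0313 with an unadjusted P of 0.011). At 9 h it was above background on 3 of 3 arrays, at -6.08, -5.84 and -3.12. It was 2.82-fold above the 0 h floor used for Gclm, an approximate bound. The bound was 1.47-fold without 9 h replicate 3, the array of the third scan day. At 6 h, with -5.40, -6.54 and -6.78 and 2 of 3 arrays above background, no bound was left without 6 h replicate 1, and none is given. It passed the filter only through the 9 h arrays and its 0 h signals were below background, so that the adjusted P of the fit (0.00331 at 9 h and 0.0351 at 6 h) is no test of a bound. The changes against 1 h within the second scan day were between -0.10 and 0.21 log2 for this probe, and none passed.

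Nfe2l2, which encodes NRF2 itself, was not called. The levels were 3.28, 3.37 and 3.59 at 0 h, with 3.63, 3.73 and 3.74 on the 0.5 h arrays and 3.59, 3.77 and 3.64 on the 6 h arrays. The arrays of 0.5 h lay above those of 0 h, by 0.29 log2 (SE 0.12, adjusted P = 0.173), and those of 6 h by 0.26 (adjusted P = 0.122), neither of which passed. The 6 h change was called with quantile normalization and with the deposited matrix, and the 9 h change (0.17) with the deposited matrix. At 3 h, when Hmox1, Sod2, Txnrd1 and Gclc had risen, the change of Nfe2l2 was 0.00 log2 (SE 0.12). NRF2 is known to be controlled mainly through the stability of its protein, which these arrays do not measure.

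**Figure D4:**
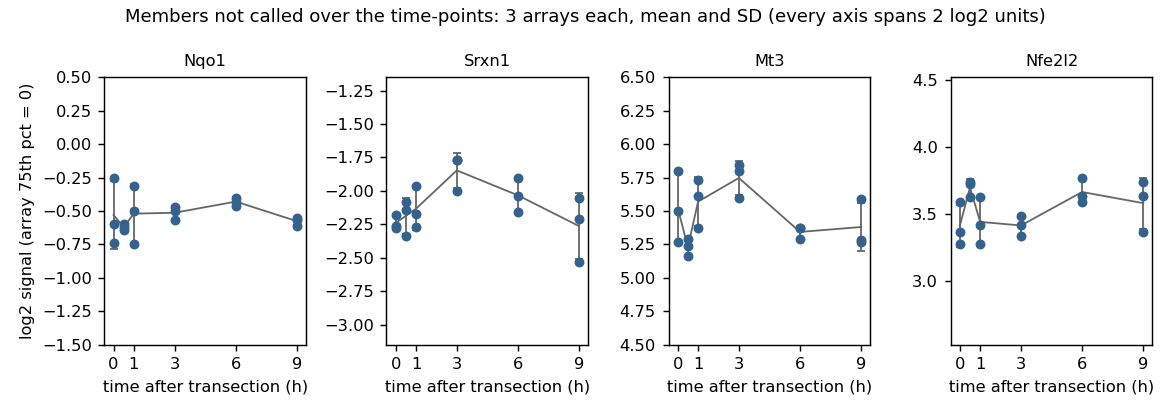
Level of Nqo1, Srxn1, Mt3 and Nfe2l2 (y axis, log2 signal with the array 75th percentile at 0, each axis spanning 2 log2 units) against the time after transection in h (x axis). Points are single arrays and lines and bars are means and SDs of 3 arrays. The arrays of most time-points overlapped those of 0 h, apart from Srxn1 at 3 and 6 h and Nfe2l2 at 0.5 and 6 h. None of these changes was called, and the share of all genes whose arrays separated in this way is not given.

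The promoters and the levels can be set side by side. Of the genes with an ARE core in the window, Mt1a, Txnrd1 and Sod2 were called over the time-points, as was Gclc, which held none. Of the genes with MRE cores, Mt1a was called and Mt3 was not. The NF-κB site was held by the same 3 called genes, Mt1a, Txnrd1 and Sod2, and by Nqo1, which was not called. Gclm, which held an ARE core, MRE cores and an NF-κB site, was near background on most arrays and is not counted here. With the 8 other genes this is a description, and no site was shown to be used.

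The other genes of these pathways, 68 from lists of NRF2 regulators, glutathione, thioredoxin, NADPH, superoxide dismutase, haem, metal and further NRF2 target genes, were less uniform. Of the 66 tested, 31 (47%) were called by the F-test, beside 34.6% of all genes. Against 0 h the number called higher was 3, 5, 10, 14 and 14 at 0.5, 1, 3, 6 and 9 h, and the number called lower 2, 0, 2, 11 and 14. In all 7.58%, 7.58%, 18.2%, 37.9% and 42.4% of the 66 were called. The shares of all genes called higher were 4.28%, 3.59%, 7.15%, 12% and 15.8% at the same time-points. Those called lower were 1.72%, 2.04%, 6.83%, 13% and 15.4%. The share of pathway genes called higher was near that of all genes at 0.5 h. At 1 and 3 h it was above that of all genes, with 5 and 10 genes called higher, and the difference was not tested. Over the 65 tested genes that were well above background on all 18 arrays, all but Maff, 30 were called by the F-test. The median change of the 66 tested genes, Maff included, was -0.07, 0.03, -0.02, -0.08 and -0.00 log2 at the 5 time-points. Slc7a11, the cystine carrier, was above background on 1 array and was not tested, and no probe named Pgd was found.

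In the zinc and copper list 2 of 8 genes were higher at 0.5 h, where 4.28% of all genes were. Mt2A, the second major metallothionein, rose by 1.35 log2 at 0.5 h (adjusted P = 0.00133), 2.17 at 1 h and 3.77 at 3 h (adjusted P = 3.66e-08). At 6 and 9 h it was 3.59 and 3.63 above 0 h. Its probe matched those of Mt1a at no more than 22 of 60 bases. The zinc importer Slc39a14 rose by 1.11 at 0.5 h (adjusted P = 0.0158) and 2.04 at 3 h, and the zinc exporter Slc30a1 by 0.81 at 3 h and 1.05 at 6 h (adjusted P = 2.54e-05). The zinc importer Slc39a10 fell by 0.66 at 3 h (adjusted P = 0.00357). The copper chaperone Atox1, not called by the F-test, fell by 0.38 at 9 h (adjusted P = 0.022). Mtf1, the metal-sensing factor, was not called (F-test adjusted P = 0.505).

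Among the regulators of NRF2, 2 of the 7 that were above background on all arrays were higher at 1, 3, 6 and 9 h, Mafk and Bach1, where 3.59%, 7.15%, 12% and 15.8% of all genes were. Mafk, a small MAF gene, rose by 0.85 log2 at 1 h (adjusted P = 0.0119) and 0.88 at 3 h. Maff, another, was well above background on 1 of 3 arrays at 0 h and on 13 of 18 in all, and is not counted here, since it was tested only through the time-points where it was bright. Bach1, the repressor of Hmox1, rose by 0.72 at 1 h (adjusted P = 0.0453), 1.04 at 3 h and 1.11 at 6 h. Sqstm1, the p62 adaptor, fell by 0.39 at 9 h. Keap1, Cul3, Mafg and Nfe2l1 were not called at any time-point.

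The glutathione list had 4 of 12 genes called by the F-test, a share near the 34.6% of all genes. Glrx, glutaredoxin, rose by 0.73 log2 at 3 h and by 1.20 at 9 h (adjusted P = 0.00058), Slc3a2, the heavy chain of the cystine carrier, by 0.63 at 9 h, and Gss, glutathione synthetase, by 0.44 at 9 h. The exporter Abcc1 fell by 0.49 at 6 h. Gstp1, not called by the F-test, fell by 0.34 at 9 h (adjusted P = 0.0198). Gsr, Gpx1 and Gpx4 were not called at any time-point.

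In the thioredoxin list Prdx5 rose by 0.60 log2 at 6 h and by 0.98 at 9 h (adjusted P = 0.000132), as did Prdx6 by 0.29 at 3 h. Txnip, the thioredoxin-binding protein, was higher by 0.97 at 0.5 h (adjusted P = 0.0457), but was called neither later nor by the F-test. Txn2 fell by 0.43 at 0.5 h, and Prdx4 by 0.37 at 9 h. Of 5 genes that supply NADPH to these enzymes 3 were lower at 6 h and at 9 h and none higher, where 13% and 15.4% of all genes were lower. Me1 fell by 0.98 at 9 h (adjusted P = 0.000467), Tkt by 0.52 and Idh1 by 0.45. Both other superoxide dismutases were called lower at 6 and 9 h and neither at 3 h, with Sod3, the extracellular enzyme, at -0.79 at 9 h (adjusted P = 0.000147) and Sod1, the cytosolic one, at -0.33 at 6 h (adjusted P = 0.0191). Catalase (Cat) was not called.

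Of 13 haem and iron genes 6 (46.2%) were called by the F-test, beside 34.6% of all genes. At 6 h 3 were higher and 3 lower, where 12% and 13% of all genes were. Hp, the haemoglobin-binding haptoglobin, rose by 1.83 log2 at 9 h (adjusted P = 0.000182), and the transferrin receptor Tfrc by 0.72. Blvrb, one of the reductases that act on the biliverdin formed by haem oxygenase, fell by 0.30 at 3 h and 0.48 at 6 h (adjusted P = 0.00145). The ceruloplasmin gene Cp rose by 0.48 at 6 h, and the ferritin chain Ftl1 fell by 0.33 at 6 h. Of the list 2 further genes were called, both lower. The constitutive haem oxygenase Hmox2 was not called. Of the further NRF2 targets, Ugdh, which makes UDP-glucuronate, rose by 1.80 at 3 h and by 1.97 at 6 h (adjusted P = 1.56e-05). Osgin1 rose by 0.75 at 9 h, whereas Aox1 fell by 0.62 and Ephx1 by 0.80 at 9 h. Akr1a1, not called by the F-test, fell by 0.31 at 0.5 h.

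**Figure D5:**
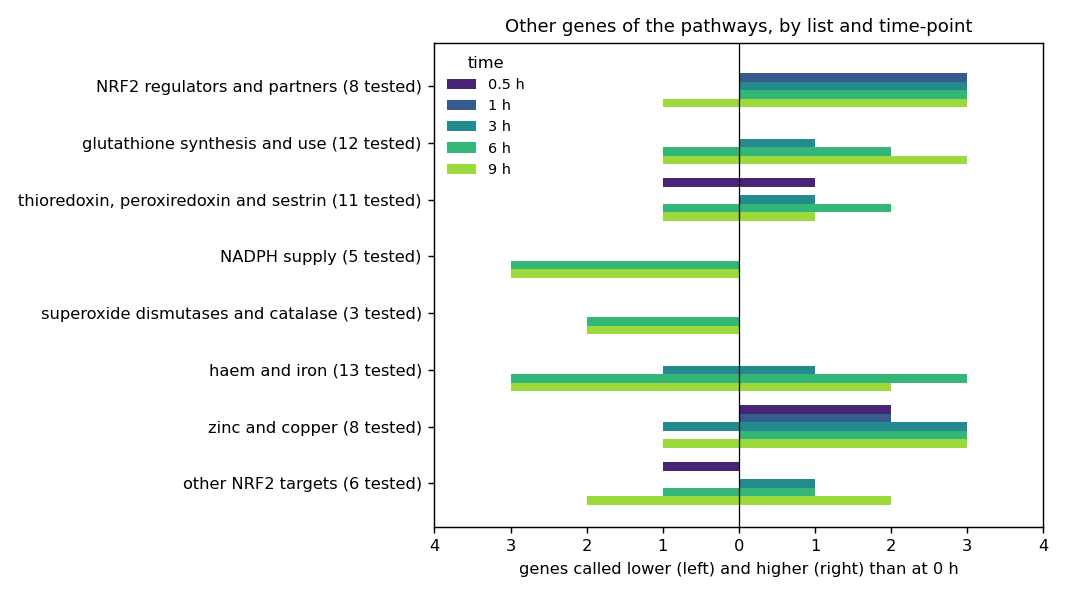
Number of genes of each pathway list (rows, with the number tested) called higher (right) or lower (left) than at 0 h (x axis, genes), 1 bar for each time-point, with Maff included in the row of NRF2 regulators. The zinc and copper list had 2 genes higher at 0.5 h, and the NADPH and superoxide dismutase lists, which do not include Sod2, had genes called only lower, at 6 and 9 h.

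The members that rose were alike over the 18 arrays in part because they share the same time-points, so that the following correlations are a description. Of 11322 genes with a symbol and a signal above background on all arrays, those most like Hmox1 were Heatr1, Txnrd1 and Polr1e (Pearson's r = 0.985 each), and those most like Txnrd1 were Fbxo27 (0.987), Hmox1 (0.985) and Polr1e (0.983). Sod2 was most like Rrp15, Epcam and Clcf1 (0.986 each), and Gclc like Birc2 (0.975), Il1rn and Nifk (0.97 both). Mt1a was most like Coq10b (0.953), Dusp5 (0.947) and Cebpd (0.936). Gclm, below background on 13 arrays, was left out.

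Markers of other cells moved over the same hours. The summed signal of 6 neutrophil markers, relative to the array 75th percentile, was 0.317 to 0.553 at 0 h, 1.9 to 4.12 at 0.5 h, 1.9 to 3.77 at 1 h, 6.88 to 20.3 at 3 h and 16.5 to 19.8 at 9 h. S100a8, S100a9 and Csf3r were called higher from 3 h on, the first pair already at 0.5 h, whereas Mpo was not called, and Ngp and Fpr1 were above background on 1 and 2 of the 18 arrays. The 6 macrophage markers summed to 24 to 26 at 0 h, 24.2 to 36.7 at 3 h and 36.3 to 46.3 at 9 h, with Cd14 called higher from 3 h on and Cd163 at 9 h, Aif1 called lower at 1 h, and Cd68, Csf1r and Mrc1 not called at any time-point. The 9 SC markers were above background on every array, with sums of 852 to 1010 at 0 h and 668 to 763 at 9 h, and 5 fibroblast markers summed to 831 to 930 and 593 to 659. Of 5 endothelial markers Kdr was called lower at 9 h, and Cdh5, Pecam1, Tek and Tie1 were not called at any time-point. The 5 skeletal muscle markers varied widely within time-points, from 88.8 to 1160 at 0 h and 0.99 to 113 at 9 h, and the 3 erythroid markers measured from 3.04 to 17.5 at 0 h, 19.9 to 31.5 at 0.5 h and 16.3 to 57.4 at 3 h. The 4 adipocyte markers summed to 8.92 to 21.3 at 0 h and 15.6 to 19.9 at 9 h. No skeletal muscle, erythroid or adipocyte marker was called at any time-point, with the haemoglobin gene Hbb at 1.84 log2 at 0.5 h (adjusted P = 0.124). The part of these cells in the changes of Mt1a, Hmox1, Sod2, Txnrd1 and Gclc was not tested.

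Across the series the signal at the 75th percentile ran from 1202.9 to 1798.2 between arrays, and 65.9% to 93.5% of spots were well above background, the highest share on 6 h replicate 1. Arrays of 1 time-point correlated at 0.976 to 0.992. None of the member spots was affected by saturation, as no spot of any array was saturated. The number of arrays, 3 per time-point, limits the precision of every value.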

How the data were processed

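The authors hybridised Cy3-labelled cRNA of proximal sciatic nerve to Agilent rat arrays, 1 array per sample, and extracted the scanned images with Feature Extraction, version 10.5.1.1 per the file headers, which give probe positions on rn4 (the methods of the study name another version). The authors deposited the background-subtracted intensity of each of 43379 non-control spots, and a series matrix of log2 values, whose ranks equal those of the intensities and whose median is 7.75 on every array, so that its scale is a between-array normalisation that the sources used here do not name. Probes were named from the gene names and accessions in the files, through RefSeq (GRCr8) for 16336 probes by accession and 21166 by accession or symbol, and promoters came from the same RefSeq tables. No rn4 genome or annotation was used, so that whether a probe lies in an exon or a UTR is not given.

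Outlier spots were left out, spots of 1 probe were averaged, and log2 intensity minus the 75th percentile of the array was used. Probes well above background on every array of at least 1 time-point (32111 probes, 27199 genes) were fitted with limma 3.58.1 in R 4.3.3, all 6 time-points together, with contrasts against 0 h and an F-test over them, and a separate fit on the 11 arrays of the second scan day. Figures and sequence searches used Python 3.11.15 with pandas 2.3.3 and matplotlib 3.10.9. The fit was tested on simulated data.

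The members, the pathway and marker lists and the rules were chosen with earlier results of these data known. The text names all 10 members, of each pathway list the genes called in the F-test or at a time-point (at most 5 by size of change, others counted), and for each called member changed at least 2-fold the 3 most correlated genes (not for Gclm, near background). Uncalled pathway genes were named after their values were seen. Alternatives were background correction, scaling, the deposited matrix, filters, blocks, array weights, thresholds and leaving out each array.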

Additional observations from a re-analysis of the deposited data

How the results depend on the processing

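The calls of Hmox1 from 3 h on and of the reported Mt1a probe at every time-point against 0 h held under each alternative run, with log2 changes of 3.54 to 3.99 for Hmox1 at 6 h and 2.65 to 3.05 for Mt1a at 3 h. Those of Sod2 from 3 h on against 0 h held too (1.84 to 2.12 at 6 h). Of the 1506 values not called in either setting, 57 changed sign under an alternative. With array weights 3 members were called at 0.5 h, 2 at 1 h and 4 at 9 h against 3 h, and with only the 6 arrays of the contrast 2 at 1 h. With a 2-fold minimum 3 were called at 3 h against 0 h, 3 at 3 h against 1 h and 0 at 9 h against 3 h. Without a filter on dim probes, or with a shift to the median, 1 was called at 9 h against 3 h. With normexp background correction, which moved the median of all genes by 0.30 at 1 h and 0.44 at 3 h, 1 member was called at 3 h (Hmox1; Mt1a, Sod2, Gclc and Txnrd1 were lost), 3 at 6 h and 2 at 9 h against 1 h, and 0 at 9 h against 3 h, 4 in place of 6 at 6 h and at 9 h against 0 h, where Gclc and Gclm were lost, and the log2 changes of Gclm against 1 h reversed to -0.56 at 6 h and -0.51 at 9 h. The cause was not tested. A shift to the median moved the median of all genes by -0.17 to -0.10.

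Gclm depended most on the settings. Its F-test call was lost with quantile normalization (adjusted P = 0.0732), the deposited matrix (0.091), normexp (0.479) and the shift to the median (0.0401, with an unadjusted P over the threshold). Nfe2l2 was called over the time-points with quantile normalization (0.0195) and the deposited matrix (0.0182), and with either 7 members were called at 6 h. Leaving out each array in turn gave 1 to 1 members at 0.5 h and at 1 h, 5 to 6 at 3 h, 6 to 6 at 6 h, 5 to 6 at 9 h and 5 to 6 over the time-points. Within the second scan day it gave 4 to 5 at 3 h, 4 to 5 at 6 h and 2 to 5 at 9 h against 1 h, the 2 without 9 h replicate 1 and 3 without 9 h replicate 2, and 0 to 3 at 9 h against 3 h. Where 9 h was left with 1 array in that fit, it was assumed to vary like the others. Scan day as a block could be fitted only for 0.5 h against 0 h, where it gave 1 member, and slide as a random block changed no count, but every slide held 1 time-point, so that this block cannot separate slide from time.

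The replicate numbers did not pair the arrays (correlations of deviations with the 0 h array of the same number from -0.26 to 0.31). With the replicate number as a block the counts at 0.5, 1, 3, 6 and 9 h were 1, 1, 5, 6 and 6, and 5, 5 and 5 against 1 h within the second scan day. Signal near background limits Gclm and the second Srxn1 probe.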
